A study of Homo sapiens with 6 samples.

Results

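Keratins are the intermediate filament proteins of epithelial cells, and the transcripts of 10 keratin genes were followed here in ARPE-19, an established human cell line derived from retinal pigment epithelium. The genes were KRT7, KRT8, KRT18, KRT19, KRT10, KRT16, KRT17, KRT80, KRT81 and KRT86, out of 60835 loci in the deposited table. Each gene was read from the table row that holds its symbol and an annotated transcript, and each had 1 such row, so the fallback on the highest mean count over the 6 libraries was never needed. The set was chosen by gene family with earlier values of the same contrast, high against normal glucose counts, already known, so the members' own values describe them and are no independent support. Cells labelled wild type had been kept for 72 h in high glucose medium (3 libraries, called high glucose 1 to 3) or in normal glucose medium (3 libraries, called normal glucose 1 to 3), and RNA was sequenced as read pairs. No glucose concentration is labelled, nor whether replicate libraries were made from different cultures, and the p-values therefore reflect library-to-library spread alone, possibly of technical origin.

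A keratin filament is built from a type I and a type II chain in equal amounts. KRT7, KRT8, KRT80, KRT81 and KRT86 are type II, and KRT10, KRT16, KRT17, KRT18 and KRT19 are type I. KRT8 and KRT18 form the pair of simple, one-layered epithelia, commonly with KRT7 and KRT19, and retinal pigment epithelium in the eye is known for KRT8 and KRT18. KRT10 marks the upper layers of the epidermis, KRT16 and KRT17 are induced in wounded or stressed epithelia, KRT80 is found at cell edges in differentiating epithelia, and KRT81 and KRT86 are hair keratins.

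RefSeq (GRCh38.p14) promoters could be matched for 2 of the 10 members, KRT8, which rose in high glucose, and KRT10, which was not called, and they are shown to set a keratin of each behaviour side by side. The type I hair keratin neighbours KRT33B, which rose, and KRT34, which was not called, are shown for the same contrast. Each run holds the 250 bases before the annotated start, 5′ to 3′ on the gene's own strand, which is the minus strand for all 4 genes. The KRT8 window is chr12:52926470-52926719, the KRT10 window chr17:40822615-40822864, the KRT33B window chr17:41369814-41370063 and the KRT34 window chr17:41382307-41382556. Capitals mark a TATA box match.
KRT8: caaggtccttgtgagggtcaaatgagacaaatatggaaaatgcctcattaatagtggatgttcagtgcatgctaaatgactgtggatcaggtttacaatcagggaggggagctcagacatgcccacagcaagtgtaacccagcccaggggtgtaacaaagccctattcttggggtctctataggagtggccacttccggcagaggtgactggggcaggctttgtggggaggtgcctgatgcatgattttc
KRT10: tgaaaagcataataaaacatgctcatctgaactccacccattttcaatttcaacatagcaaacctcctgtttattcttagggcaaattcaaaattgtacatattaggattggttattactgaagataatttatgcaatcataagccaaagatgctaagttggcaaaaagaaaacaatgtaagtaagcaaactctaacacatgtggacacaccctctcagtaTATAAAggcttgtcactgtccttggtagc
KRT33B: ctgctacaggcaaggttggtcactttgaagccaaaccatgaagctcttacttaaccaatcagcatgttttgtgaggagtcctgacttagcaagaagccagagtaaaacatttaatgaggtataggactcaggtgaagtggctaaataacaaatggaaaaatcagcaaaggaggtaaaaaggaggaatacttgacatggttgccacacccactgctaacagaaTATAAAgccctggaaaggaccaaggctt
KRT34: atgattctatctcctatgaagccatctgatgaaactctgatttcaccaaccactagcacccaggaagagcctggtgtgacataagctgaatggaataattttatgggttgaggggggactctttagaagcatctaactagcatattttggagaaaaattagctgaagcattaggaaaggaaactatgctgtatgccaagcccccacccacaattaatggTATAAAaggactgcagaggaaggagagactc
TATAAA was found in KRT10, KRT33B and KRT34 and not in the KRT8 window, on either strand, and 10.7% of 35116 RefSeq promoters of the same length hold it. The GC box letters GGGCGG (held by 42.6% of promoters), the AP-1 site letters TGANTCA (6.57%) and the E-box letters CACGTG (6.34%) were in none of the 4 windows on either strand. By the table's coordinates, whose build is not named, the KRT8 window lies inside the row counted for KRT8, which runs on to 52949954, whereas the KRT10 and KRT33B windows begin directly beyond their rows. Each gene is shown with 1 annotated start, and no match says only that these letters are not in this window.

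Values are given as CPM, counts relative to library size after TMM scaling, and a locus is referred to as called if its Benjamini-Hochberg adjusted p in edgeR, over all 25025 loci tested, was under 0.05. The libraries held 81616741 to 87748820 counts. Of all tested loci, 19.6% were called, 9.75% as higher and 9.86% as lower in high glucose. Among tested protein-coding loci, to which the 10 keratins belong, 25.5% were called in either direction. All 10 keratins passed the filter on low counts, KRT16 only through its counts in high glucose. Of the 10, 5 rose (KRT7, KRT8, KRT18, KRT80 and KRT81), none fell and 5 were not called, with a median log2 change of 1.46, or 1.17 with KRT16 set at a detection limit of 12 counts per library in normal glucose, against -0.00 for all tested loci. High glucose lay wholly above normal glucose for the 5 called keratins, and this was so for 21.8% of tested loci (42.3% in either direction). KRT16 did not overlap either, but it is not counted here because its normal glucose counts were under the detection limit. The number of loci called higher was 3924 without normal glucose 3, against 2439 with all 6 libraries, and 800 to 1543 without any 1 of the others.

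**Figure D1:**
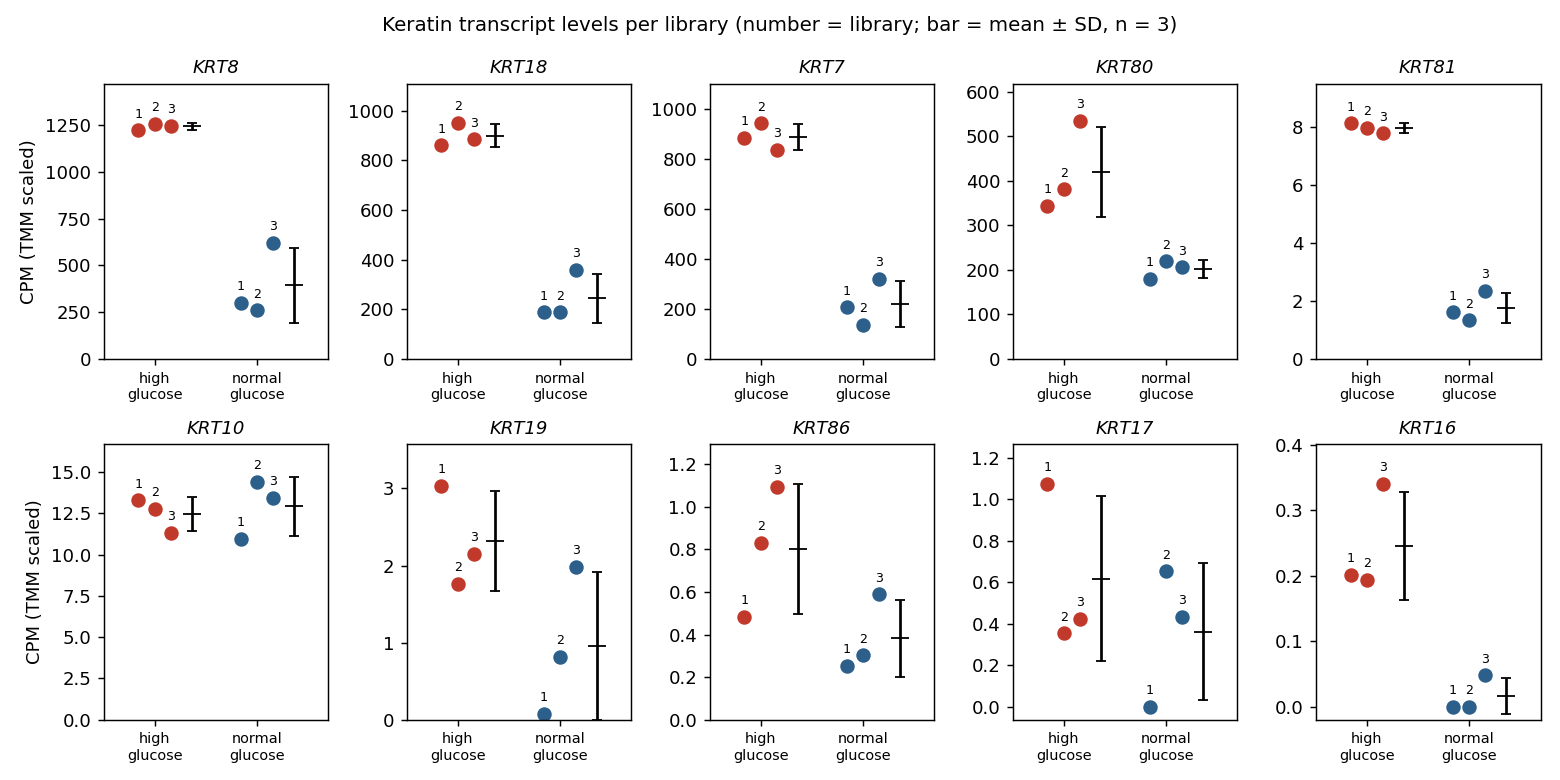
Transcript level of the 10 keratins in CPM (TMM scaled, linear axes that differ between panels), 1 point per library with its number, and mean ± SD (n = 3). KRT8, KRT18, KRT7, KRT80 and KRT81 sit higher in every high glucose library than in any normal glucose library, and normal glucose 3 is the highest of its group for KRT8, KRT18, KRT7 and KRT81.

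KRT8, the type II chain of simple epithelia, stood at 1223, 1258 and 1247 CPM in high glucose 1, 2 and 3, against 299.5, 259.6 and 622 CPM in normal glucose 1, 2 and 3. The high glucose libraries lay close together and all above the normal ones, among which the third was the highest. KRT8 was 3.16-fold higher in high glucose (log2 change 1.66, SE 0.32; edgeR adjusted p = 0.0152). Its log2 change was 2.15 without normal glucose 3 (edgeR adjusted p = 0.00014). It was not called without high glucose 1, 2 or 3 or without normal glucose 1, where the edgeR adjusted p was 0.0522, 0.0566, 0.0545 and 0.052 and the log2 change 1.67, 1.65, 1.66 and 1.495.

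KRT18, the type I partner of KRT8, stood at 860.3, 949 and 885 CPM in high glucose, against 187, 187 and 359 CPM in normal glucose. Again the groups did not overlap and normal glucose 3 was the nearest to high glucose. KRT18 was 3.67-fold higher in high glucose (log2 change 1.88, SE 0.27; edgeR adjusted p = 0.00636), and its log2 change was 2.26 without normal glucose 3. It was called with any 1 library left out (log2 changes of 1.72 to 2.26; highest edgeR adjusted p = 0.0334).

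KRT7, another type II chain of simple and glandular epithelia, stood at 883, 941 and 835 CPM in high glucose, against 207, 137 and 320 CPM in normal glucose. Every high glucose library was above every normal one, with the same order of the normal libraries as for KRT8. KRT7 was 4.01-fold higher in high glucose (log2 change 2.003, SE 0.29; edgeR adjusted p = 0.00676), and was called with any 1 library left out (log2 changes of 1.75 to 2.37; highest edgeR adjusted p = 0.034).

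KRT80 stood at 344, 380.4 and 534 CPM in high glucose, against 180.2, 219.6 and 206 CPM in normal glucose. Here the spread lay in the other group, since high glucose 3 was well above high glucose 1 and 2 and the normal libraries were close to each other. KRT80 was 2.08-fold higher in high glucose (log2 change 1.05, SE 0.18; edgeR adjusted p = 0.011), and its log2 change was 0.84 without high glucose 3 and 1.07 without normal glucose 3, called in both cases.

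KRT81, a type II hair keratin, was expressed at a far lower level, with 8.13, 7.99 and 7.78 CPM in high glucose, against 1.61, 1.34 and 2.36 CPM in normal glucose. The high glucose libraries differed little from each other and lay far above the normal ones. KRT81 was 4.50-fold higher in high glucose (log2 change 2.17, SE 0.25; edgeR adjusted p = 0.00358) and was called with any 1 library left out. Its row also holds the pseudogene KRT87P, and hair keratins of type II are close in sequence, so the reads cannot be assigned to KRT81 with certainty.

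The other 5 keratins were not called. KRT10 stood at 13.3, 12.8 and 11.3 CPM in high glucose, against 10.96, 14.4 and 13.4 CPM in normal glucose, with groups that overlapped (log2 change -0.05, SE 0.16; edgeR adjusted p = 0.848). KRT10 was the only member with a negative estimate, and at about 1090 counts per library on average its level was well measured.

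KRT19, a type I chain of simple epithelia that has no tail domain, stood at 3.04, 1.77 and 2.15 CPM in high glucose, against 0.0809, 0.816 and 1.98 CPM in normal glucose. The normal libraries were spread widely and the third overlapped with high glucose (log2 change 1.27, SE 0.86; edgeR adjusted p = 0.345). Its log2 change was 2.37 without normal glucose 3 and 0.73 without normal glucose 1, and it was called in neither case (edgeR adjusted p = 0.0844 and 0.347). KRT86, the hair keratin whose row also holds AC021066, stood at 0.482, 0.832 and 1.09 CPM in high glucose, against 0.254, 0.303 and 0.589 CPM in normal glucose, and the groups overlapped (log2 change 1.07, SE 0.48; edgeR adjusted p = 0.167).

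KRT17 and KRT16, type I chains of wounded epithelia, were near the limit of detection. KRT17 had 96, 31 and 35 counts in high glucose, against 0, 56 and 36 counts in normal glucose (log2 change 0.77, SE 1.13; edgeR adjusted p = 0.675), with log2 changes of 0.10 to 1.52 as 1 library was left out, none called. KRT16 had 18, 17 and 28 counts in high glucose, against 0, 0 and 4 counts in normal glucose. A count of 0 allows up to 12 counts per library here, since 1 fragment may have been counted about 4 times, which is 0.135 to 0.146 CPM and covers counting error only. KRT16 had an edgeR adjusted p of 0.0678. It was called in 4 of 17 alternatives, namely without normal glucose 3 (edgeR adjusted p = 0.0142), with DESeq2 (adjusted p = 0.0136), with counts divided by 4 and with limma on log2(FPKM + 0.1). In the 13 others it was not called (adjusted p up to 0.171). KRT16 passed the filter only through high glucose, so these calls are no independent support. No fold is given because the normal libraries were under this limit.

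**Figure D2:**
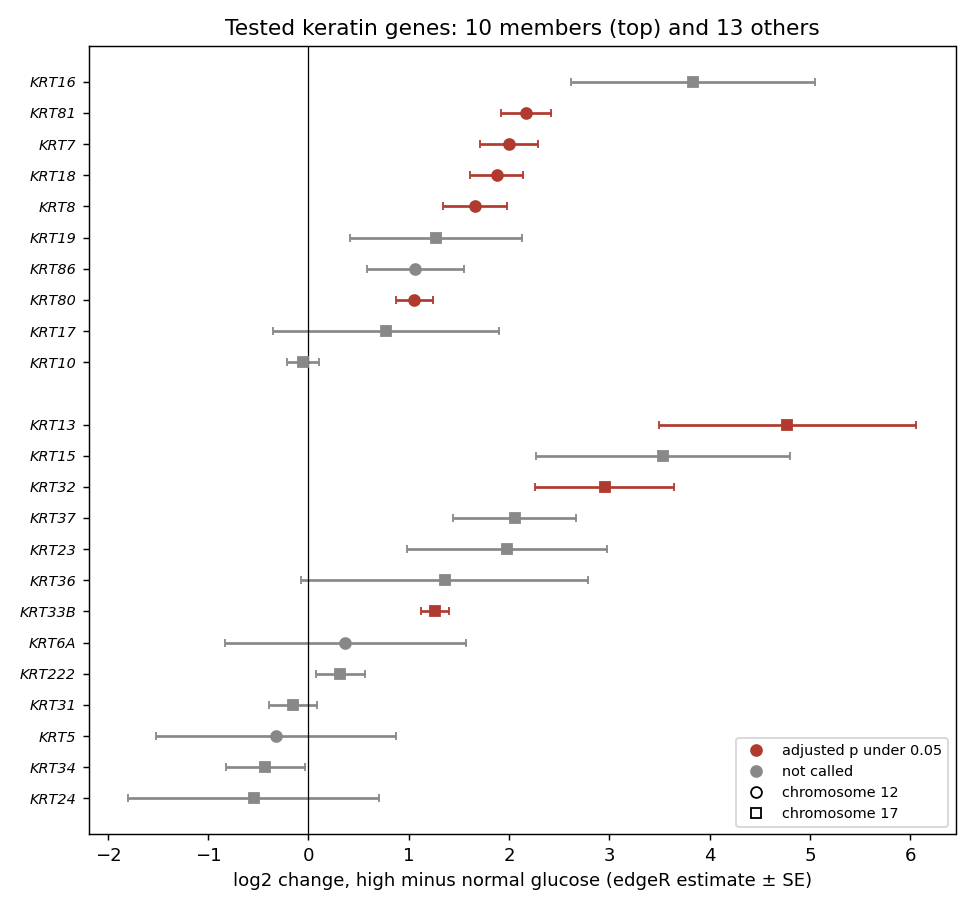
edgeR log2 change (high minus normal glucose, ± SE) of the 23 keratin genes with a tested locus, the 10 members above and 13 others below. Red marks an adjusted p under 0.05, circles lie on chromosome 12 and squares on chromosome 17. Estimates for genes near 0 counts in normal glucose (KRT16, KRT13, KRT15) depend on the prior count of the fit. The KRT222 row also holds SMARCE1 and AC073508.

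Levels of different genes were compared per length, with the FPKM values that the authors deposited. KRT18 had the highest FPKM of the members in all 6 libraries. It stood at 233, 254 and 236 FPKM in high glucose, against 49.0, 49.1 and 93.4 FPKM in normal glucose. In CPM, without scaling by length, KRT8 was above KRT18 in every library. The CPM means were 1243 against 898 in high glucose and 394 against 245 in normal glucose. The FPKM order, shares and ratios therefore rest on the row lengths used, which are not given. In high glucose KRT18 was followed by KRT7 (mean 174 FPKM), KRT8 (146), KRT80 (79.2) and KRT10 (4.75), and the ranges of these did not overlap. In normal glucose KRT8 (mean 44.9 FPKM), KRT7 (42.0) and KRT80 (37.1) had overlapping ranges, and KRT10 (4.79) stood below them. KRT81 averaged 1.35 FPKM in high and 0.290 FPKM in normal glucose, where it overlapped with KRT19, and KRT86, KRT17 and KRT16 were at most 0.333 FPKM in any library.

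The 10 keratins together summed to 626, 664 and 652 FPKM in high glucose, against 160, 151 and 269 FPKM in normal glucose. They took 0.342%, 0.359% and 0.356% of all counts in high glucose, against 0.0875%, 0.0804% and 0.151% in normal glucose. Both measures are sums over members that were chosen with results known, so they are given without a test. KRT7, KRT8 and KRT18 made up 88.2%, 88.1% and 83.6% of the summed FPKM in high glucose, against 76.5%, 69.3% and 83.6% in normal glucose, so that normal glucose 3 reached the level of high glucose 3. KRT80 held 10.5%, 10.8% and 15.4% in high glucose, against 20.7%, 26.7% and 14.0% in normal glucose, which overlapped. KRT10 held 0.815%, 0.730% and 0.657% in high glucose, against 2.54%, 3.54% and 1.84% in normal glucose, which did not.

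**Figure D3:**
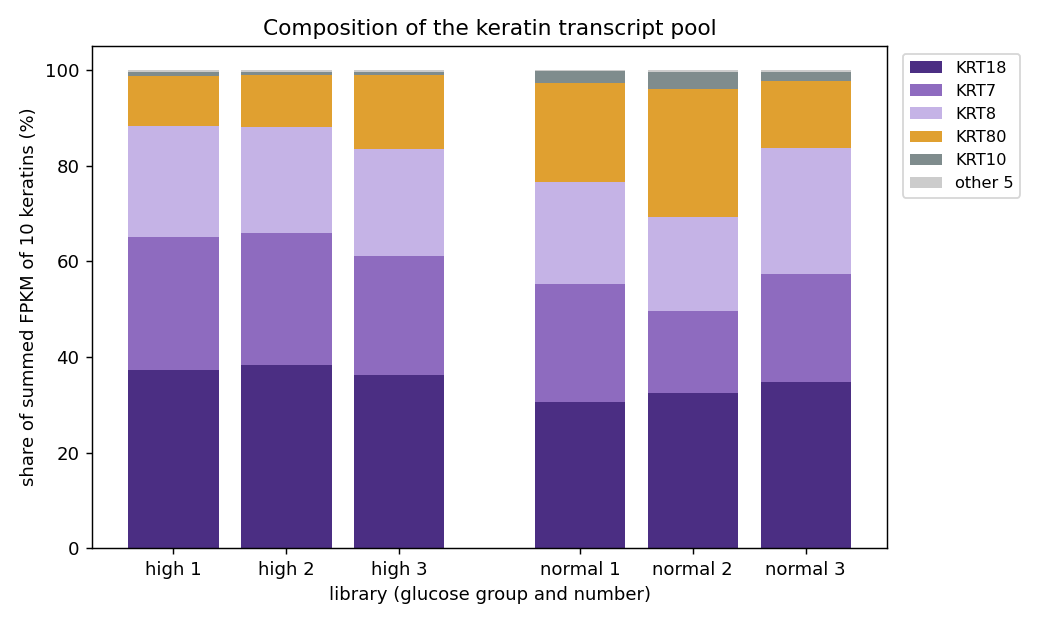
Share of each keratin in the summed FPKM of the 10 members, 1 bar per library. KRT18, KRT7 and KRT8 together hold 83.6% to 88.2% in high glucose and 69.3% to 83.6% in normal glucose.

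The ratio between chains moved less than their levels. Type II chains over type I chains, as summed FPKM, came to 1.61, 1.56 and 1.70 in high glucose, against 2.02, 1.76 and 1.71 in normal glucose, lower in all 3 high glucose libraries than in any normal one by a narrow margin. KRT8 over KRT18 was 0.622, 0.580 and 0.617 in high glucose, against 0.699, 0.606 and 0.757 in normal glucose, with overlap. KRT7 over KRT8 was 1.20, 1.25 and 1.12 in high glucose, against 1.15, 0.877 and 0.857 in normal glucose, with overlap as well. These ratios were not tested.

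The 5 called keratins, KRT80, KRT7, KRT81, KRT8 and KRT18, lie on chromosome 12, where the type II genes and KRT18 are found, as does KRT86. None of the 4 members on chromosome 17 was called, where 25.5% of tested protein-coding loci were called, and KRT16 and KRT17 among them were near the limit of detection. Outside the members, KRT33B, KRT32 and KRT13 on chromosome 17 rose, and the type II genes KRT5 and KRT6A were not called. KRT13 passed the filter only with its high glucose counts, so its call is no independent support. Whether position plays a part was not tested. In the table's own coordinates, for which no human build is named, KRT80 spans 52168996 to 52192014, KRT7 52232520 to 52252186 and the KRT81 row 52250466 to 52291534. KRT8 spans 52897187 to 52949954 on the minus strand and KRT18 52948871 to 52952900 on the plus strand, so these 2 rows share 1084 bases. The KRT86 row shares 2887 bases with KRT7 on the same strand and 41069 bases with the KRT81 row on the other. KRT7 and the KRT81 row, both called, share 1721 bases on opposite strands, and KRT7 is by far the more abundant. Nothing states that counting used strand, so reads in shared stretches cannot be assigned to 1 gene with certainty.

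Neighbouring loci were read for comparison. The nearest tested protein-coding locus before KRT80 was ATG101, an autophagy gene, with 33.0, 36.7 and 26.2 CPM in high glucose, against 55.5, 64.1 and 39.1 CPM in normal glucose (log2 change -0.73; edgeR adjusted p = 0.0529). After KRT18 it was EIF4B, a translation initiation factor, which overlapped between groups (log2 change -0.28; edgeR adjusted p = 0.404). Without normal glucose 3 both were called lower, with log2 changes of -0.90 for ATG101 (edgeR adjusted p = 0.00922) and -0.50 for EIF4B (0.0117). KRT7-AS, an antisense transcript within KRT7, rose with KRT7, to 24.8, 26.5 and 25.8 CPM in high glucose, against 6.01, 2.902 and 10.2 CPM in normal glucose (log2 change 2.01, SE 0.41; edgeR adjusted p = 0.0176). An assembled locus without annotated transcript opposite KRT80 also rose (log2 change 1.33; edgeR adjusted p = 0.0233). KRT7-AS and this locus were not called without any 1 of the high glucose libraries or without normal glucose 1 (edgeR adjusted p of 0.0518 to 0.0796). The KRT7-AS row lies wholly inside the KRT7 row, and the assembled locus wholly inside the KRT80 row. Use of strand in counting is not stated, so their counts may be reads of KRT7 and KRT80.

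KRT8 and KRT18 have many processed pseudogenes, which can take reads from the parent gene. The 50 KRT8 pseudogene rows that hold no other gene summed to 1.55% to 1.71% of the KRT8 count in high glucose, against 2.26% to 4.85% in normal glucose. The 66 KRT18 pseudogene rows summed to 0.42% to 0.631% of the KRT18 count in high glucose, against 1.03% to 2.74% in normal glucose. Of 12 tested KRT8 pseudogenes 2 rose and of 12 tested KRT18 pseudogenes none was called, where 19.6% of all tested loci were called. The 2 were KRT8P3 (log2 change 1.28; edgeR adjusted p = 0.0188) and KRT8P10, which passed the filter only through high glucose. KRT8P10 had 27, 37 and 25 counts in high glucose, against 4, 6 and 5 counts in normal glucose, under the detection limit (edgeR adjusted p = 0.0243). Both KRT8P3 and KRT8P10 were named after their values were seen. KRT8P3 was not called without any 1 of the high glucose libraries (edgeR adjusted p of 0.0535 to 0.0717), and KRT8P10 was called in 1 of the 6 omissions, that of normal glucose 3, and not with voom (adjusted p = 0.0799).

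**Figure D4:**
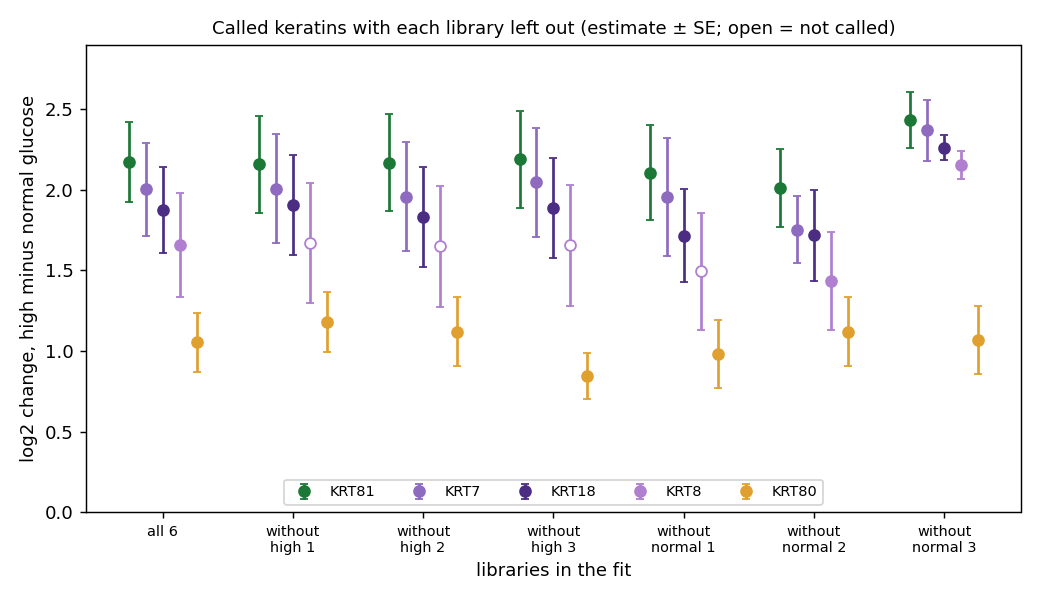
edgeR log2 change (± SE) of the 5 called keratins with all 6 libraries and with each left out. Filled points are called and open points are not. KRT8 is open without high glucose 1, 2 or 3 and without normal glucose 1, and KRT7, KRT8, KRT18 and KRT81 are highest without normal glucose 3.

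Among the other keratins of the genome, 11 of 24 type I genes could be tested, of which 3 rose and none fell (27.3% called; 25.5% of tested protein-coding loci were). KRT13, KRT15 and KRT36 were at 0 in normal glucose 1 and 2 and passed the filter only with their high glucose counts. No median is given for that reason. The call of KRT13, counted among the 3, is no independent support. KRT33B, a hair keratin and the most abundant of them, stood at 129.8, 129.3 and 131.6 CPM in high glucose, against 64.3, 52.8 and 46.0 CPM in normal glucose (log2 change 1.26, SE 0.14; edgeR adjusted p = 0.00321). It was called with any 1 library left out. KRT32, another hair keratin, stood at 5.54, 6.26 and 5.95 CPM in high glucose, against 0.982, 0.117 and 1.19 CPM in normal glucose (log2 change 2.95; edgeR adjusted p = 0.027), and KRT13, a keratin of wet stratified epithelia, at 4.84, 4.65 and 4.35 CPM, against 0, 0 and 0.505 CPM (edgeR adjusted p = 0.0413). Of the omissions of 1 library, KRT32 was called in those of normal glucose 2 and 3 and KRT13 in that of normal glucose 3 alone (edgeR adjusted p up to 0.0805 and 0.106 in the others), and KRT13 was not called with DESeq2 (adjusted p = 0.113).

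KRT34, next to KRT33B, stood at 41.1, 46.7 and 46.1 CPM in high glucose, against 77.7, 78.1 and 24.8 CPM in normal glucose. Normal glucose 3 was the lowest library and the other normal ones the highest, so the groups overlapped (log2 change -0.43; edgeR adjusted p = 0.489), and without normal glucose 3 the log2 change was -0.80 (edgeR adjusted p = 0.00207). KRT31 (log2 change -0.16; edgeR adjusted p = 0.691), KRT36, KRT24, and KRT222, in a row with SMARCE1 and AC073508, had overlapping groups. KRT37, KRT15 and KRT23 lay wholly higher in high glucose but were not called (edgeR adjusted p = 0.0559, 0.0944 and 0.208), each at 1.1 CPM or less. KRT37 was called without normal glucose 2 (edgeR adjusted p = 0.0498) and KRT15 without normal glucose 3 (0.00372), whereas KRT23 was called in no omission. Without normal glucose 3, KRT36 (edgeR adjusted p = 0.0255) and the row of KRT222 (0.0038) were also called higher. Reads of the shared row cannot be assigned to KRT222 with certainty. Of 21 other type II genes, 17 were at 0 in every library and 2 could be tested. These were KRT6A, of wounded epithelia, at 2.50, 1.65 and 2.51 CPM in high glucose, against 0, 1.40 and 3.78 CPM in normal glucose, and KRT5, of basal epidermal cells, at 1.10, 0.444 and 0.559 CPM, against 0, 0.746 and 1.89 CPM. Neither was called (edgeR adjusted p = 0.863 and 0.880). KRT14, the type I partner of KRT5, did not pass the filter.

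Proteins that tie keratin filaments to junctions were read from a list of 21 plakin, desmosome and hemidesmosome genes, of which 18 were tested, 5 rose and 2 fell (38.9% called, against the same 25.5%), with a median log2 change of 0.10. ITGB4, the hemidesmosome integrin chain that binds plectin, stood at 233, 222 and 229.6 CPM in high glucose, against 103, 103 and 106 CPM in normal glucose (log2 change 1.13, SE 0.09; edgeR adjusted p = 0.00164). PLEC, plectin itself, stood at 1331, 1307 and 1324 CPM in high glucose, against 491, 410.3 and 827 CPM in normal glucose (log2 change 1.20, SE 0.25; edgeR adjusted p = 0.0192). JUP, plakoglobin of the desmosome plaque, stood at 163, 149.7 and 168 CPM in high glucose, against 33.1, 38.7 and 81.3 CPM in normal glucose (log2 change 1.65, SE 0.33; edgeR adjusted p = 0.0168). For PLEC and JUP, as for KRT8, normal glucose 3 was the nearest to high glucose.

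EPPK1, epiplakin, which binds keratins, rose (log2 change 2.10; edgeR adjusted p = 0.0113), as did PKP3, a plakophilin (1.35; edgeR adjusted p = 0.0129). PKP2, another plakophilin, fell by 0.61 on the log2 scale (edgeR adjusted p = 0.0239) and DSC1, a desmocollin, stood at 0, 0.479 and 0.194 CPM in high glucose, against 20.0, 27.9 and 2.38 CPM in normal glucose (edgeR adjusted p = 0.0188). DSC1 passed the filter only with its normal glucose counts. Its call, counted among the 2 that fell, and its place in the list median are therefore no independent support. DSP, desmoplakin, stood at 284, 293 and 295 CPM in high glucose, against 267, 289 and 310 CPM in normal glucose (edgeR adjusted p = 0.963). ITGB4 and EPPK1 were called with any 1 library left out. PLEC and JUP were called in 2 of the 6 omissions, PKP3 in 4, PKP2 in 1 and DSC1 in 2 (highest edgeR adjusted p of 0.0655, 0.0593, 0.0564, 0.0986 and 0.0789), and DSC1 was not called with voom and a weight per group (adjusted p = 0.0969). PLEC, PKP2, DSC1 and DSP were named after their values were seen.

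Of 15 other intermediate filament genes, 11 were tested, 2 rose and 1 fell (27.3% called, against 25.5% of tested protein-coding loci), with a median of 0.35. LMNA, of the nuclear lamina, stood at 215, 221 and 233 CPM in high glucose, against 134, 95.2 and 161 CPM in normal glucose (log2 change 0.78; edgeR adjusted p = 0.0301). NEFH, a neurofilament chain, rose by 0.86 (edgeR adjusted p = 0.0377), and PRPH, a neuronal filament gene, was at 0 in all high glucose libraries, against 0.219, 0.501 and 0.180 CPM in normal glucose (edgeR adjusted p = 0.018). PRPH, the 1 gene counted as lower, passed the filter only through normal glucose, where the detection limit was 0.139 to 0.144 CPM. Its call and its place in the list median are therefore no independent support. LMNA was called in 2 of the 6 omissions of 1 library, NEFH in 1 and PRPH in 2 (highest edgeR adjusted p of 0.0976, 0.119 and 0.053). VIM, the vimentin of mesenchymal and cultured cells, was the most abundant filament gene read, at 2513, 3143 and 2527 CPM in high glucose, against 1645, 1400 and 3107 CPM in normal glucose. Normal glucose 3 again lay with the high glucose libraries, and VIM was not called (log2 change 0.41; edgeR adjusted p = 0.373); without that library its log2 change was 0.84 (edgeR adjusted p = 0.00584). VIM was named after its values were seen.

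Of 20 tested genes that bind, modify or degrade keratins, 2 rose and 3 fell (25% called, against 25.5% of tested protein-coding loci), with a median of 0.01. PRKCE, a protein kinase C that phosphorylates KRT8 and KRT18, stood at 13.5, 14.4 and 12.6 CPM in high glucose, against 47.8, 48.8 and 25.6 CPM in normal glucose (log2 change -1.59, SE 0.25; edgeR adjusted p = 0.00845). MAPK8, the stress kinase JNK1, fell by 0.45 (edgeR adjusted p = 0.0408) and RPS6KA1, a ribosomal S6 kinase, by 0.53 (edgeR adjusted p = 0.0288). YWHAZ, a 14-3-3 protein, rose by 0.62 (edgeR adjusted p = 0.0113), and CASP6, a caspase that cleaves KRT18, by 0.72 (edgeR adjusted p = 0.0477; named after its values were seen). PRKCE was called with any 1 library left out, YWHAZ in 4 of the 6 omissions, MAPK8 in 2, and RPS6KA1 and CASP6 in 1 each, that of normal glucose 3.

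Of 25 transcription factors linked to keratin genes, 20 were tested, 3 rose and 5 fell (40% called, against 25.5% of tested protein-coding loci), with a median of -0.01. KLF4, a factor of epithelial differentiation, stood at 5.65, 5.11 and 5.10 CPM in high glucose, against 21.3, 27.3 and 19.0 CPM in normal glucose (log2 change -2.09, SE 0.18; edgeR adjusted p = 0.0021). The repressor ZEB2, which acts on epithelial promoters, fell by 0.75 (edgeR adjusted p = 0.00411). The AP-1 subunits JUN and JUNB rose by 0.77 and 0.89 (edgeR adjusted p = 0.00532 and 0.00746). ELF3, an epithelial ETS factor in a row with AL691482 that was named after its values were seen, rose to 3.89, 4.65 and 5.01 CPM in high glucose, against 0.785, 0.583 and 1.42 CPM in normal glucose (log2 change 2.28; edgeR adjusted p = 0.00838). KLF5, ETS2 and TFAP2A, also named after their values were seen, fell by 1.04, 1.03 and 0.87. Of these 8 genes, 7 were called with any 1 library left out, and TFAP2A in 3 of the 6 omissions.

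The loci whose libraries tracked KRT18 and KRT7 most closely, the 2 keratins with the highest mean FPKM over all 6 libraries (in normal glucose alone KRT8 averaged above KRT7), were found by the root mean square difference of centred log2 CPM over the 6 libraries, among tested rows with 1 protein-coding gene. For KRT18 they were PXYLP1 (difference 0.07), CSRNP3 (0.08) and MYORG (0.10), and for KRT7 they were MMP15 (0.08), NCKAP5 (0.12) and NEK6 (0.13). Among the keratins themselves KRT18 differed from KRT8 by 0.13, from KRT81 by 0.15 and from KRT7 by 0.19, and from KRT80 by 0.58. MMP15, a membrane-bound metalloprotease, stood at 289, 289 and 308 CPM in high glucose, against 66.3, 45.0 and 110.2 CPM in normal glucose. All of these comparisons rest on the same 6 libraries and describe likeness only.

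Marker genes were read to see what the cells express. Of 13 retinal pigment epithelium markers, 8 were tested, none rose and 1 (BEST1) fell, and the summed level of the list was 89.3 to 127 CPM in high glucose, against 140 to 161 CPM in normal glucose. OTX2, MITF and LRAT were present, whereas RPE65, TTR, TYR and DCT were under 0.2 CPM in every library and RGR was at 0, so the label rests on part of the defining markers. Of 12 keratinocyte markers other than keratins, 5 were tested and 1 (FLG) rose, with a summed level of 117 to 151 CPM in high glucose, against 96.8 to 123 CPM in normal glucose. SPRR1A, SPRR1B, SERPINB3, LY6D and CALML3 were at 0 in every library and TP63 was at most 0.335 CPM. Of 11 fibroblast markers 1 (PDGFRB) rose and 2 (COL1A1 and TWIST1) fell, with a sum of 273 to 276 CPM in high glucose, against 221 to 331 CPM in normal glucose. Of 9 photoreceptor markers 3 were tested and 1 (PDE6B) rose, with a sum of 13.8 to 22.5 CPM in high glucose, against 7.80 to 8.22 CPM in normal glucose, and CRX and SAG were at 0. Of the tested markers, 12.5% (retinal pigment epithelium), 20% (keratinocyte), 27.3% (fibroblast) and 33.3% (photoreceptor) were called, against 25.5% of tested protein-coding loci. With 1 library left out, PDGFRB and PDE6B were called in all 6 omissions, BEST1 in 4, FLG in 3, and COL1A1 and TWIST1 in 1 each (highest edgeR adjusted p of 0.0369, 0.0392, 0.0523, 0.101, 0.104 and 0.085), and FLG was not called with voom (adjusted p = 0.0535). The part of these marker calls in the keratin result was not tested. In RNA from whole cultures, a change in the number of cells that express a keratin and a change in RNA per cell cannot be told apart.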

How the data were processed

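RNA of ARPE-19 cells was sequenced as read pairs in 6 libraries, 3 per group. The table deposited by the authors gives, per assembled locus and library, a raw count and an FPKM value, per the file headers. Bowtie 0.12.2 is listed in the submitters' processing notes together with mm8, a mouse genome build, although the loci carry human gene names, and the assembler, the counting tool and its use of strand are not given in the sources used here. Counts of 4 were more frequent (9555 values) than counts of 3 (4210) or 5 (2659).

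Counts were tested with edgeR 4.0.16 (TMM scaling, filterByExpr, quasi-likelihood test, R 4.3.3) with no covariate and Benjamini-Hochberg adjustment over all 25025 loci tested, after the script was tested on simulated data. Limma 3.58.1 on log2(FPKM + 1), voom, DESeq2 1.42.0, other scalings and filters, a replicate block and omission of each library were alternatives. FPKM served to compare genes. The members and lists were chosen with earlier results of these data known. The text names the members, every other tested keratin and up to 4 called genes per list by smallest adjusted p. It also names the 3 loci most like each of the 2 members with the highest mean FPKM. Other called or compared list genes are identified as named after their values were seen. Neighbouring and antisense loci, pseudogenes and marker genes lie outside the rule.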

Additional observations from a re-analysis of the deposited data

How the results depend on the processing

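The number of keratins that rose was 5 under other scalings, other filters, voom, limma on log2(FPKM + 1), the replicate block and summed rows. It was 6, with KRT16 added, under DESeq2, counts divided by 4 and log2(FPKM + 0.1), 4 to 6 with 1 library left out, and none fell under any of these. KRT16 passed the filter only through high glucose, so its addition is no further support. With the replicate block 5 keratins rose, and over all loci 1312 rose and 1233 fell, against 2439 and 2467 without it. Of the other named genes, KRT13, PRPH, NEFH, PKP2, MAPK8, RPS6KA1, CASP6, COL1A1, TWIST1, FLG and KRT8P10 were not called with the block (adjusted p of 0.0534 to 0.0961), and ATG101 was (0.0369). The labels give libraries of the 2 groups no link beyond a shared number. Deviations of same-numbered libraries had correlations of -0.03, 0.01 and -0.01, and 2 of 6 libraries correlated best with their own number. With 3 libraries per group these values cannot settle whether libraries were paired. With 1 library left out, other type I keratins gave 1 to 6 higher and 0 to 1 lower, other filament genes 0 to 5 and 0 to 2, linkers 2 to 7 and 0 to 5, binding and turnover genes 0 to 4 and 1 to 4, and transcription factors 3 to 4 and 4 to 7. The mean share of KRT7, KRT8 and KRT18 was 85.8% to 88.2% in high glucose and 72.9% to 80.1% in normal glucose. The cause of these shifts was not tested. Depth limits KRT16, KRT17 and KRT86, which had fewer than 100 counts in every library.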

Other observations

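Keratin-associated proteins form the matrix between hair keratin filaments, and their KRTAP2 genes lie on chromosome 17. These genes were chosen after their values were seen. KRTAP2-3 stood at 12.3, 14.9 and 16.3 CPM in high glucose, against 0.843, 0.699 and 1.74 CPM in normal glucose (log2 change 3.73, SE 0.38; edgeR adjusted p = 0.00274). KRTAP2-4 stood at 1.38, 0.969 and 1.20 CPM in high glucose, against 0.0231, 0.0233 and 0.12 CPM in normal glucose (edgeR adjusted p = 0.00739), and no fold is given because all 3 normal libraries were under the detection limit. In both genes every high glucose library lay above every normal one, and both were called with any 1 library left out. KRTAP2-4 passed the filter only with its high glucose counts, so its calls and its lack of overlap are no independent support. KRTAP2-1 and KRTAP2-2 did not pass the filter. The KRTAP2 genes are close copies of each other, so how reads were divided among them is uncertain.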
